A study of Mus musculus with 11 samples.

Results

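The genes described here encode the chains of collagen and the proteins that process them, measured in mammary glands bearing PN1a or PN1b lesions. A probe set was taken when it is annotated to a single gene whose symbol has the form of a collagen chain (Col, a type number, a, a chain number), or to P4ha1, P4ha2, Plod1, Plod2, Lox, Loxl1, Pcolce, Bmp1 or Serpinh1. This gave 54 probe sets of 38 genes, out of 12422 probe sets and 8251 genes on the array. Of these, 44 probe sets belong to 31 collagen chains, with 13 probe sets of 8 fibrillar chains, 5 probe sets of 5 basement membrane chains and 26 probe sets of 18 other chains, and 10 probe sets belong to 7 processing genes. No probe set carried the single symbol Plod1 or Plod2, nor that of chains such as Col4a6, Col5a3, Col8a2 or Col16a1, and these were not analysed here.

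Collagens are secreted proteins of the extracellular matrix in which 3 chains wind into a triple helix. Fibrillar collagens such as types I, III and V form the fibrils of the connective tissue around mammary ducts and are made mainly by fibroblasts. Type IV collagen forms the network of basement membranes, which lie beneath the epithelium and around vessels and fat cells, and a basement membrane breached by epithelial cells marks the step from a preinvasive lesion to an invasive one. Type VIII collagen is a short-chain, network-forming collagen known from Descemet's membrane of the eye and from the walls of injured vessels.

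PN1a and PN1b are preneoplastic outgrowth lines of p53-null (Trp53-/-) Balb/c mammary epithelium that arose in opposite glands of one mouse and were kept by serial transplantation, so each group samples 1 line. Both were grown in cleared fat pads of wild-type Balb/c females, and host stroma, vessels, fat and immune cells are wild type in both groups. Whole glands were taken 8 weeks after transplantation, from 5 PN1a and 6 PN1b samples, and RNA was hybridized to Affymetrix MG_U74Av2 arrays. PN1a is the line with the higher tumor-forming potential, and the comparison asks which transcripts differ between the lines before tumors form.

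Values are log2 of the deposited array intensity, and a difference is PN1a minus PN1b on that scale, tested with limma across all 12422 probe sets with Benjamini-Hochberg adjustment. Calls required a 1.5-fold difference and an adjusted p below 0.05. In bulk glands, fewer cells of a type and less RNA per cell cannot be told apart. Nothing in the labels says which samples came from separate mice, and the titles of PN1b 1 to 4 have the form of number ranges, so the p-values measure only the spread between these samples.

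Some samples stood apart. PN1a 1 and PN1a 2 had 18S RNA intensities of 157 and 211, against 5.68 to 17.96 in the other 9 samples, and log2 Fos of 4.02 and 3.87, against 7.94 to 9.29. PN1a 5 and PN1b 6 had the highest ratios of 3' to 5' Gapdh probe sets, 4.17 and 5.21, against 0.83 to 2.17. The endings of the sample titles, whose meaning is not given, place all 5 PN1a samples with PN1b 5 and PN1b 6 in an array batch 1, PN1b 2 alone in batch 2 and PN1b 1, PN1b 3 and PN1b 4 in batch 3. The luminal keratins Krt8 and Krt18, which mark mammary epithelium, ran from 5.72 to 8.79 and from 6.19 to 9.35 in PN1a samples, and from 8.26 to 9.36 and from 9.32 to 9.87 in PN1b samples. Of the 8 luminal markers 5 had a lower and 3 a higher mean in PN1a, and none was called over all samples. Among the higher ones Krt19 and Muc1 differed by 2.63 and 1.41. Without PN1a 1 and PN1a 2 they differed by 4.09 and 1.99 and were called (adjusted p = 0.000761 and 0.00211, limma). In that fit 0.684% of all probe sets were called higher. The summed intensity of the 8 was 260 for PN1a 1, while PN1b ranged between 1152 and 1966.

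Col8a1 was the only collagen chain that passed the test, and it was 8.17-fold higher in PN1a. Col4a1 and Col4a2, the chains of the main basement membrane collagen, had lower means in PN1a by 0.37 and 0.52 on the log2 scale, and neither difference passed the test. The chains of interstitial fibrils, Col1a1, Col1a2, Col3a1, Col5a1 and Col5a2, differed by less than their spread within the groups. Across the array 0.869% of probe sets were called higher and 1.62% lower in PN1a, against 1 of 44 chain probe sets called higher and 0 called lower, and 0 of 10 processing probe sets in either direction. At an unadjusted limma p under 0.05, 7 of the 54 probe sets were higher in PN1a, beside 7.65% of all probe sets, and 2 were lower, beside 11.3%. Together these are 16.7% of the 54, beside 18.9% of all.

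The sequences around the annotated starts of the genes shown in detail are given here because Col4a1 and Col4a2 share theirs, while Col8a1 stands alone on another chromosome. Each is the RefSeq window from 250 bases before to 50 after the annotated start in GRCm38.p6, 5' to 3' on the strand of the gene. The Col4a1 window is chr8:11312777-11313076 on the minus strand and that of Col4a2 is chr8:11312555-11312854 on the plus strand. Their annotated starts, at 11312826 for Col4a1 and 11312805 for Col4a2, are 21 bases apart on opposite strands, so the first bases of both genes overlap. Capitals mark the 78 bases that lie in both windows. In the Col8a1 window, chr16:57754688-57754987 on the minus strand, capitals mark matches to GGGCGG, all 4 of them on the opposite strand and so printed as CCGCCC.
Col4a1: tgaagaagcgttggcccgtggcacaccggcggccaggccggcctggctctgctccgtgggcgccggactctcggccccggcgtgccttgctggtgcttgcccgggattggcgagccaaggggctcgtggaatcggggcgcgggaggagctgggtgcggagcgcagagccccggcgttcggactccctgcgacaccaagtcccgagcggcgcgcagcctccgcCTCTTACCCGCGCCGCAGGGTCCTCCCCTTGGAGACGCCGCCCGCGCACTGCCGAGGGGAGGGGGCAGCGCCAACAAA
Col4a2: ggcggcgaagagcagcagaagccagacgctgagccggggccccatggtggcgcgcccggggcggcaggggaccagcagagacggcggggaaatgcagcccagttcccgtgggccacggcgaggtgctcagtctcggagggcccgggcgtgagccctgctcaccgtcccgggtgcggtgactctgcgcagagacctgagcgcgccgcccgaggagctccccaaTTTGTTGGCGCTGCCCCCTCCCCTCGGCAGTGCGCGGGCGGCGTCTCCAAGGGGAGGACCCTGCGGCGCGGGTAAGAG
Col8a1: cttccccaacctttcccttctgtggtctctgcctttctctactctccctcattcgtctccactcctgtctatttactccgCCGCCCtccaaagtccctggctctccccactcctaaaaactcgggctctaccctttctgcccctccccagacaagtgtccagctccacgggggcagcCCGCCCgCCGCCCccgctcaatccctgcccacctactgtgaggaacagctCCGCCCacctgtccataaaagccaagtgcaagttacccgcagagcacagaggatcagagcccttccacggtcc
The Col4a1 and Col4a2 windows were 74% and 73.7% G and C, against 60.3% for Col8a1 and a median of 52.7% over 32851 windows of this length. GGGCGG, searched on both strands, was found 1 time in the Col4a1 window, 3 times in that of Col4a2 and 4 times in that of Col8a1, and 35.7% of all windows hold it. CCAAT was found 1 time in each of the Col4a1 and Col4a2 windows and 37.4% of all windows hold it, and TATAAA, held by 13.6%, was in none of the 3. Of the 38 genes, 26 have a window in the table, 29 windows in all, of which 17 held GGGCGG, 9 CCAAT and 6 TATAAA. These matches are a description of letters, and binding was not measured.

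Col8a1, the alpha 1 chain of type VIII collagen on chromosome 16, is measured by 1 probe set. Its log2 intensity was 8.15, 5.77, 5.14, 4.70 and 4.62 in PN1a 1 to PN1a 5, against 1.86 at the lowest, 2.63 at the median and 3.79 at the highest in PN1b. PN1a 1 stood far above the other samples, and even the lowest PN1a sample lay above the highest PN1b sample. The groups did not overlap in this way, higher in PN1a, for 1.58% of all probe sets and, among the 54, for Col8a1 alone, and lower in PN1a for 2.38% of all and 0 of the 54. The means were 5.68 ± 1.46 in PN1a (SD, n = 5) and 2.65 ± 0.71 in PN1b (SD, n = 6), a difference of 3.03 (SE 0.57, 95% interval 1.81 to 4.25, adjusted p = 0.0143, limma), and Col8a1 ranked 104 by p among all probe sets.

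The size of the Col8a1 difference varied with the samples and its call with the batch. Without PN1a 1 the difference was 2.41, and without PN1a 1 and PN1a 2 it was 2.17 (adjusted p = 0.0167, limma). Leaving out any 1 of the 11 samples gave 2.41 to 3.29 and kept the call each time, with adjusted p from 0.00627 to 0.0418. Within array batch 1, PN1b 5 and PN1b 6 were at 2.99 and 3.79, the highest PN1b values, and the 5 PN1a samples still lay above both, with a difference of 2.29. That value no longer passed the test, with adjusted p = 0.671 in batch 1 alone and adjusted p = 0.428 with batch as a fixed block (limma). In those 2 fits 0.0483% and 0.0966% of all probe sets were called higher in PN1a. No chain was called higher on log2(value + 16), with 0.523% of all probe sets, or by the methods' t-test after adjustment, with 0.403%. Col8a1 alone was called with batch as a random block, without PN1a 1 and PN1a 2, and without PN1a 5 and PN1b 6, where 0.467%, 0.684% and 0.926% of all were.

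Macrophage markers moved in the same direction as Col8a1. All 7 measured markers were higher on average in PN1a, and 2 were called (Cd68 and C1qb), though neither with batch as a fixed block (adjusted p = 0.414 and 0.467, limma) nor without PN1a 1 and PN1a 2 (adjusted p = 0.0726 and 0.189, limma), and in 3 and 2 of the 11 fits that left out a single sample. Their summed intensity was 142 to 765 in PN1a, reaching 765 for PN1a 1 and 426 for PN1a 2, while PN1b ranged between 57.1 and 139. None of the 7 reached the floor of the deposited values in any sample. The fibroblast markers, by contrast, had sums of 227 to 712 in PN1a and 284 to 480 in PN1b, the highest in PN1a 1 and the lowest in PN1a 2, with 0 of 9 called and Tcf21 alone reaching the floor, in PN1b. Other marker sums separated the groups in the opposite direction. Those of 8 adipocyte markers were 67.2 to 175 in PN1a, lowest in PN1a 2 and PN1a 1, and 208 to 278 in PN1b. Lpl alone was called, lower in PN1a, and Pparg reached the floor in PN1a. The Lpl call held in 3 of the 11 fits that left out a single sample, but not with batch as a fixed block (adjusted p = 0.453, limma). Lpl, the brightest of the 8, averaged 5.76 in PN1a and 7.57 in PN1b, and the gap between the sums came mainly from it. As a list the markers were not lower, since 5 of the 8 had a higher mean in PN1a and the median difference was 0.08. The sums of 6 lymph node and lymphocyte markers were 56.2 to 82.4 in PN1a and 126 to 303 in PN1b, with Glycam1 alone called, lower in PN1a. Glycam1 averaged 2.57 in PN1a and 6.73 in PN1b, and the gap between these sums came mainly from it. The Glycam1 call held in each of the 11 fits that left out a single sample, but not with batch as a fixed block (adjusted p = 0.351, limma). Of the 6 markers 5 had a lower mean in PN1a, and Ms4a1 was higher by 0.33. Of 9 endothelial markers 8 had a lower mean in PN1a, and 9 within array batch 1, without a call. Their sums overlapped, at 123 to 392 in PN1a and 259 to 408 in PN1b. All 5 Schwann cell markers had a lower mean in PN1a, with S100b alone called (-3.76, adjusted p = 0.0124, limma), though not with batch as a fixed block (adjusted p = 0.237, limma). The part of any of these cells and of the 18S RNA in the Col8a1 difference was not tested.

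**Figure D1:**
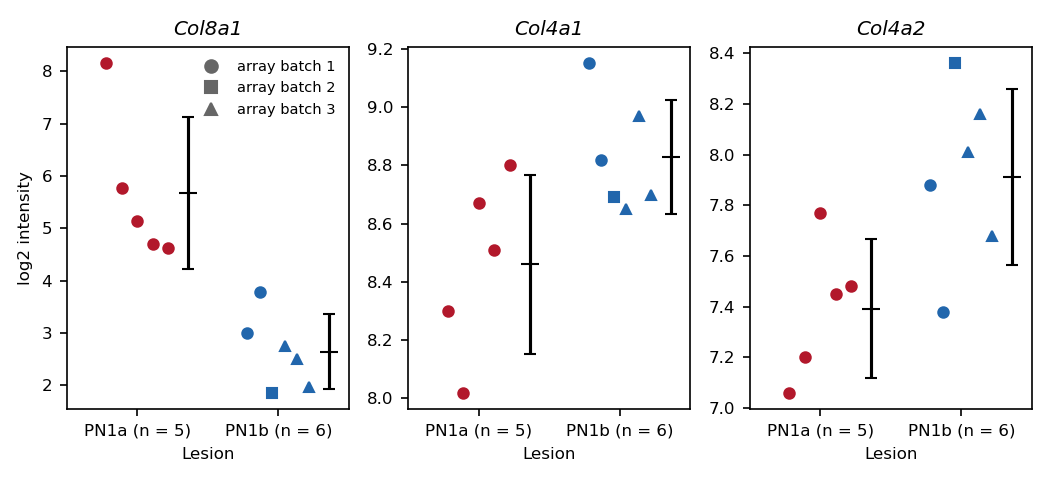
Log2 intensity (y axis, 1 scale per panel) of Col8a1, Col4a1 and Col4a2 in PN1a and PN1b samples; points are samples, shaped by array batch, and the bar beside each group is its mean with SD. All 5 PN1a samples lie above all 6 PN1b samples for Col8a1, while for Col4a1 and Col4a2 the groups overlap and the PN1a means are lower.

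Col4a1 encodes the chain that is present in 2 copies in the common type IV collagen molecule. Its log2 intensity was 8.30, 8.02, 8.67, 8.51 and 8.80 in PN1a 1 to PN1a 5, against 8.65 at the lowest, 8.76 at the median and 9.15 at the highest in PN1b. The groups overlapped, with 3 PN1a samples below every PN1b sample and PN1a 3 and PN1a 5 within the range of PN1b. The means were 8.46 ± 0.31 in PN1a and 8.83 ± 0.20 in PN1b (SD, n = 5 and 6), a difference of -0.37 (95% interval -0.77 to 0.03, adjusted p = 0.306, limma). Without PN1a 1 and PN1a 2 the difference was -0.17, and within array batch 1 it was -0.53.

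Col4a2 encodes its partner chain. Its log2 intensity was 7.06, 7.20, 7.77, 7.45 and 7.48 in PN1a 1 to PN1a 5, against 7.38 at the lowest, 7.95 at the median and 8.36 at the highest in PN1b. PN1a 1 and PN1a 2 lay below every PN1b sample, and the other 3 PN1a samples lay within the PN1b range, whose lowest samples were PN1b 6 and PN1b 4. The means were 7.39 ± 0.27 in PN1a and 7.91 ± 0.35 in PN1b, a difference of -0.52 (SE 0.21, 95% interval -0.97 to -0.07), with an unadjusted p of 0.0278 and an adjusted p of 0.202 (limma). The difference was -0.24 within array batch 1 and -0.34 without PN1a 1 and PN1a 2. These intervals, from the fit over all 11 samples without a batch term, exclude a change of the size seen for Col8a1. They leave room for a decrease of up to 0.97 on the log2 scale and do not take the array batch into account.

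Col4a1 and Col4a2 lie side by side on chromosome 8 among genes of which several were called higher in PN1a and most were not. In gene order, Irs2, the next measured gene on one side, differed by 3.04 (SE 0.46, adjusted p = 0.00352, limma), Rab20 on the other side by -0.995 (adjusted p = 0.285), and Ing1 after it by 1.22 (adjusted p = 0.00967), and Atp11a, Pcid2, Cul4a, Lamp1 and Tfdp1 further on by 1.93 to 2.97. Between and beside these, Ankrd10, Arhgef7, Sox1, Tubgcp3, F7, F10 and Dcun1d2 were not called, with differences of -0.535 to 0.62. On the far side of Irs2, Elavl1, Ccl25, Slc10a2, Efnb2 and Arglu1 were not called either, at -0.64 to 0.18. Across the array 0.869% of probe sets were called higher. The pair and Rab20 thus lay between Irs2 and Ing1, both called higher, and were themselves not called.

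**Figure D2:**
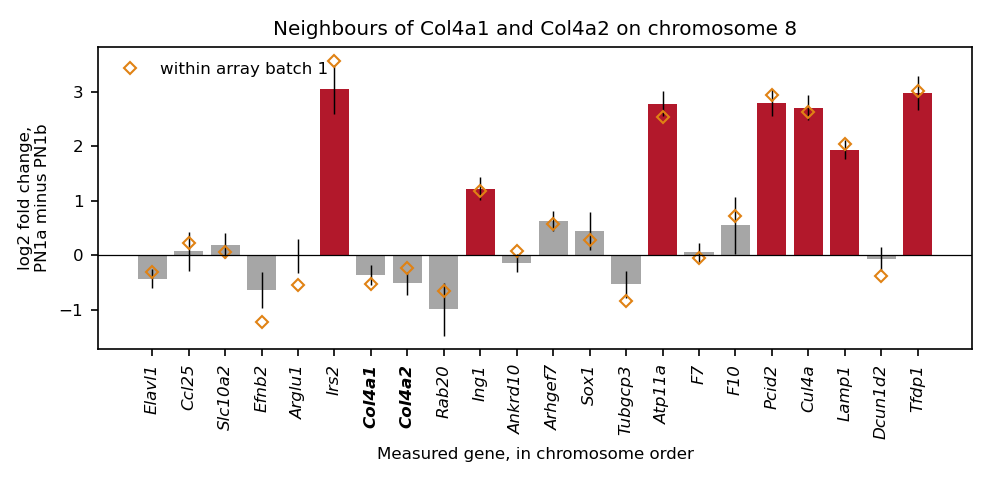
Log2 fold change (PN1a minus PN1b, y axis) of the measured genes around Col4a1 and Col4a2 in their order on chromosome 8 (x axis), with standard errors as lines, called genes in red and the value within array batch 1 as diamonds. Irs2 lies at 3.04 and Ing1 at 1.22, while Col4a1 and Col4a2 lie at -0.37 and -0.52.

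The other basement membrane chains did not pass the test. Col4a3 and Col4a4, which pair in the specialized membranes of the kidney and lung, were dim, and Col4a4 was at the floor of the deposited values in PN1a 5 and PN1b 4. Col4a3 had 1.77, 1.93, 1.13, 1.62 and 0.99 in PN1a 1 to PN1a 5, against 0.08 at the lowest, 0.55 at the median and 1.34 at the highest in PN1b, a difference of 0.82 (95% interval 0.24 to 1.40, adjusted p = 0.121, limma) near the floor of the array. Col4a5, the chain that joins them, had 2.71 in PN1a 1 and 3.94 to 4.79 in the other PN1a samples, against 3.94 to 4.21 in PN1b, a difference of 0.02. Over the 5 chains the median difference was 0.02, beside -0.01 over all probe sets.

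Among the fibrillar chains none of 13 probe sets was called, and the median difference was 0.11. Col1a1, the alpha 1 chain of type I collagen, the most abundant collagen of connective tissue, had 9.51, 7.96, 9.20, 9.13 and 8.93 in PN1a 1 to PN1a 5, against 8.04 at the lowest, 8.63 at the median and 9.38 at the highest in PN1b. PN1a 1 was the highest and PN1a 2 the lowest of all 11 samples, so that the PN1a samples enclosed the PN1b range, and the difference was 0.33 (95% interval -0.33 to 0.98, adjusted p = 0.615, limma). Its second probe set differed by 0.65 (adjusted p = 0.374).

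Col1a2, the other type I chain, had 9.72, 7.50, 9.28, 9.29 and 9.11 in PN1a 1 to PN1a 5, against 8.38 at the lowest, 8.94 at the median and 9.40 at the highest in PN1b. It showed the same 2 extremes as Col1a1, and the difference was 0.09 (95% interval -0.65 to 0.83). Col3a1, which forms the finer fibrils of soft tissue, had 8.61, 7.20, 8.97, 9.26 and 9.15 in PN1a 1 to PN1a 5, against 8.60 at the lowest, 8.65 at the median and 9.38 at the highest in PN1b. Here only PN1a 2 lay outside the PN1b range, and the difference was -0.23 (95% interval -0.96 to 0.51). Col5a1 and Col5a2, chains of the type V collagen that starts fibrils and limits their width, differed by 0.14 (95% interval -0.52 to 0.81) and 0.11 (95% interval -0.42 to 0.63). The second probe set of Col5a1 differed by 0.84 (95% interval -0.28 to 1.96, adjusted p = 0.412, limma), with 6.77 in PN1a 1 and 3.13 to 4.51 in the other PN1a samples, against 3.23 to 4.56 in PN1b. For these 5 chains the smallest adjusted p was 0.615 (limma) for the brightest probe set of each, and the intervals reach down to -0.96 and up to 0.98.

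Cartilage chains came closest to the threshold among fibrillar collagens. Col11a1, a minor chain of cartilage fibrils, had 3.97, 3.81, 3.07, 3.01 and 3.41 in PN1a 1 to PN1a 5, against 2.26 at the lowest, 2.58 at the median and 3.08 at the highest in PN1b. The groups overlapped only at the edge, with PN1a 3 and PN1a 4 just under the highest PN1b samples, and the difference was 0.81 (95% interval 0.28 to 1.35, adjusted p = 0.0985, limma). Col2a1, the main chain of cartilage fibrils, had 2.95, 3.70, 3.07, 3.10 and 2.55 in PN1a 1 to PN1a 5, against 1.57 at the lowest, 1.99 at the median and 3.25 at the highest in PN1b. PN1b 5 alone lay among the PN1a samples. The difference was 0.88 (95% interval 0.24 to 1.52, adjusted p = 0.130, limma). Of the 11 fits that left out a single sample, Col2a1 was called in 1, without PN1b 5, at adjusted p = 0.0312 (limma). The share of all probe sets called in that fit is not given here. Both chains were dim, with means over the 11 samples of 3.01 for Col11a1 and 2.59 for Col2a1, at percentiles 47.8 and 40.7 of all probe sets. On log2(value + 16) their differences were 0.28 and 0.24. Col11a2, a further cartilage chain, differed by -0.39.

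**Figure D3:**
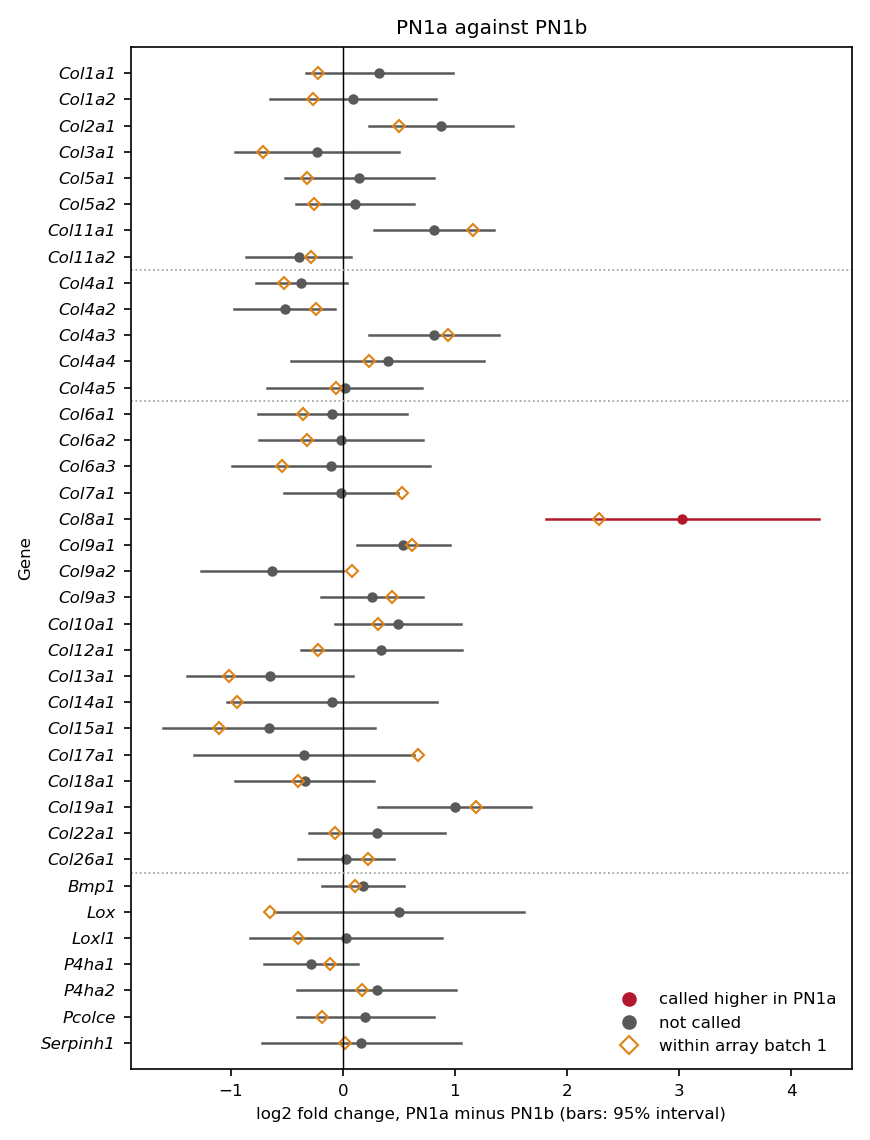
Log2 fold change (PN1a minus PN1b, x axis) with its 95% interval for the brightest probe set of each of the 38 genes, in blocks from the top of fibrillar, basement membrane and other chains and processing genes; diamonds give the value within array batch 1. Col8a1 at 3.03 is the called gene, and the others lie between -0.66 and 1.0.

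Several chains shared a pattern across the samples. Col1a1, Col1a2, Col3a1, Col5a1, Col5a2, Col6a1, Col6a2 and Col6a3, the chains of types I, III, V and VI, were all lowest in PN1a 2, a set put together after these values were seen. Their mean relative to the 11-sample average was 0.52 in PN1a 1, -1.26 in PN1a 2 and 0.20 to 0.32 in the other PN1a samples, against -0.44 at the lowest, -0.05 at the median and 0.58 at the highest in PN1b. PN1a 2 was thus far below every other sample, while the remaining PN1a samples lay within the range of PN1b. PN1a 2 was the lowest sample for 20 of the 54 probe sets (37.0%) and 8 of the 13 fibrillar ones (61.5%), beside 16.1% of all probe sets.

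Within PN1b the batches also differed. PN1b 5 and PN1b 6 were both above the other 4 PN1b samples for 20 of the 54 probe sets (37.0%) and for 8 of the 13 fibrillar ones (61.5%), and both below them for 4 of the 54, beside 11.7% and 14.8% of all probe sets. Of the fibrillar probe sets, 9 of 13 had a positive difference over all 11 samples and 3 of 13 within array batch 1, where the median difference was -0.26 against 0.11. Without PN1a 1 and PN1a 2 it was 0.34. The direction of the fibrillar chains as a group therefore changed with the samples compared. PN1a 1 was the highest sample for 14 of the 54 probe sets (25.9%), beside 13.7% of all, and it also had the highest fibroblast marker sum, 712, while PN1a 2 had the lowest, 227. The part of those cells in the collagen values was not tested.

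**Figure D4:**
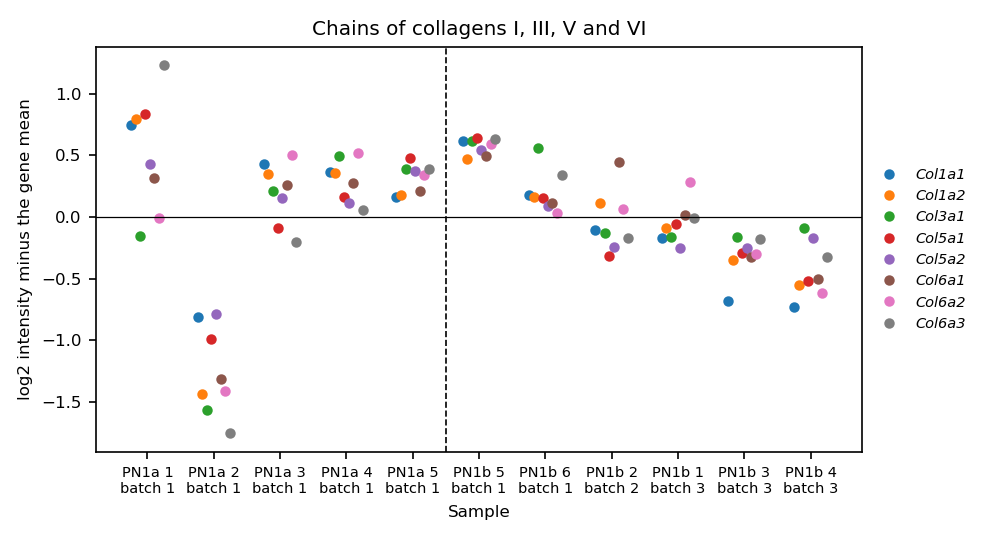
Log2 intensity minus the mean of the gene over the 11 samples (y axis) for the 8 chains of types I, III, V and VI, 1 color per gene, with PN1a samples left of the dashed line and PN1b samples right of it. All 8 chains are lowest in PN1a 2, where their mean is -1.26, and all 8 are above the gene mean in PN1b 5, where it is 0.58.

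Chains that assemble into one molecule were compared across the 11 samples in 5 pairs, by a permutation test with 100000 resamples. Col1a1 and Col1a2 had Pearson's r of 0.913 and Spearman's rho of 0.982 (permutation p = 2e-05 for both, the smallest these resamples can give, adjusted p = 0.0001), with r of 0.969 without PN1a 2 and PN1b 4, 0.986 in array batch 1 and 0.976 in PN1b. Col5a1 and Col5a2 had r of 0.940 and rho of 0.829 (permutation p = 0.0001 and 0.00256, adjusted p = 0.00025 and 0.0064), with r of 0.895 without PN1a 1 and PN1a 2 and 0.960 in array batch 1. In PN1b the type V pair had r of 0.903 and rho of 0.464 (exact permutation p = 0.0667 and 0.372), so its relation did not pass the test there.

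Col4a1 and Col4a2, which share their start region, had r of 0.604 and rho of 0.491 (permutation p = 0.0440 and 0.131, adjusted p = 0.0440 and 0.131). The value was 0.543 without PN1a 2 and PN1b 5, 0.203 without PN1a 1 and PN1a 2, 0.788 in array batch 1 and -0.06 in PN1b. The relation of the type IV pair did not hold within PN1b, where Col4a1 was highest in PN1b 5 and Col4a2 in PN1b 2. Col6a1 had r of 0.927 with Col6a2 and 0.823 with Col6a3 (rho 0.718 and 0.682, permutation p = 0.0011 and 0.00858 for r and 0.0170 and 0.0253 for rho, adjusted p = 0.00183 and 0.0107 for r and 0.0284 and 0.0317 for rho). For the type VI pairs r was 0.614 and 0.374 without PN1a 2 and PN1b 4, 0.851 and 0.557 without PN1a 1 and PN1a 2, 0.958 and 0.890 in array batch 1, and 0.860 and 0.661 in PN1b.

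Of the 26 probe sets of other chains, Col8a1 was the only one called, and the median difference was 0.01. Col6a1, Col6a2 and Col6a3, the chains of the beaded filaments of type VI, differed by -0.09, -0.02 and -0.10. Col6a3 had 8.29, 5.31, 6.86, 7.12 and 7.45 in PN1a 1 to PN1a 5, against 6.74 at the lowest, 6.97 at the median and 7.69 at the highest in PN1b. The PN1a samples therefore spanned more than the whole PN1b range, with PN1a 1 above it and PN1a 2 below it.

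Col19a1, a fibril-associated chain, had 2.01, 2.93, 2.86, 2.27 and 2.71 in PN1a 1 to PN1a 5, against 0.74 at the lowest, 1.60 at the median and 2.30 at the highest in PN1b. The groups overlapped through PN1a 1, PN1a 4, PN1b 1 and PN1b 2, and the difference was 1.0 (95% interval 0.32 to 1.68, adjusted p = 0.108, limma). Col9a1, a chain of the type IX collagen on the surface of cartilage fibrils, had 4.46, 4.96, 4.32, 4.52 and 4.18 in PN1a 1 to PN1a 5, against 3.57 at the lowest, 4.0 at the median and 4.18 at the highest in PN1b. The groups met at 4.18, in PN1a 5 and PN1b 5, and the difference was 0.54 (95% interval 0.13 to 0.95, adjusted p = 0.145, limma).

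Col9a2, a partner of Col9a1, went the other way, with 4.30, 5.39, 4.60, 4.48 and 4.89 in PN1a 1 to PN1a 5, against 4.46 at the lowest, 5.58 at the median and 5.91 at the highest in PN1b. PN1b 5 and PN1b 6 lay among the PN1a samples and the other 4 PN1b samples above all of them, the difference was -0.63 (adjusted p = 0.262, limma), and within array batch 1 it was 0.08. Col9a3, the remaining type IX chain, differed by 0.26.

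Chains of the epithelial and vascular border did not pass the test either. Col17a1, a transmembrane collagen of hemidesmosomes, which anchor basal epithelial cells, had 3.90 in PN1a 1 and 5.32 to 6.39 in the other PN1a samples, against 4.75 at the lowest, 6.21 at the median and 6.38 at the highest in PN1b, where PN1b 5 and PN1b 6 were at 4.77 and 4.75. Its difference was -0.35 over all samples and 0.67 within array batch 1. Col7a1, which forms anchoring fibrils, differed by -0.02. Col15a1, of basement membranes around vessels and muscle, had 4.53, 3.94, 6.33, 6.55 and 6.11 in PN1a 1 to PN1a 5, against 5.70 at the lowest, 6.13 at the median and 6.65 at the highest in PN1b. Only PN1a 1 and PN1a 2 lay below the PN1b range, and the difference of -0.66 became 0.18 without them.

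Col18a1, the basement membrane chain whose end fragment is endostatin, is measured by 5 probe sets, with differences of -0.40 to 0.05. Of these, 4 them were highest in PN1a 2, at 7.40 in the brightest against 5.64 to 6.30 in the other PN1a samples and 6.26 to 6.70 in PN1b. That sample was the lowest for the brightest probe sets of the type I, III and V chains and the highest for Col2a1. Of the rest, Col12a1 differed by 0.34 and, in its second probe set, by 0.73 (adjusted p = 0.159, limma). Col13a1 differed by -0.65, and by -0.08 without PN1a 1 and PN1a 2, while its second, dimmer probe set differed by 0.03. Col10a1 differed by 0.49, Col22a1 by 0.30, Col14a1 by -0.09 and Col26a1 by 0.03.

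The processing genes act on newly made chains inside and outside the cell. Their median difference was 0.19 over all samples and -0.15 within array batch 1, and 0 of 10 probe sets reached even an unadjusted p of 0.05. P4ha1, a catalytic subunit of the prolyl hydroxylase that stabilizes the helix, had 5.77, 5.28, 5.22, 5.07 and 5.17 in PN1a 1 to PN1a 5, against 5.11 at the lowest, 5.63 at the median and 5.90 at the highest in PN1b. All but PN1a 4 lay within the PN1b range, and the difference was -0.28 (95% interval -0.70 to 0.14, adjusted p = 0.471, limma). P4ha2, another such subunit, had 5.49 in PN1a 1 and 3.49 to 3.93 in the other PN1a samples, against 3.31 to 4.20 in PN1b.

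Serpinh1, the collagen chaperone of the endoplasmic reticulum, had 7.52, 5.54, 6.87, 7.07 and 5.76 in PN1a 1 to PN1a 5, against 5.49 at the lowest, 6.53 at the median and 7.39 at the highest in PN1b. The groups covered nearly the same range, and the difference was 0.17 (95% interval -0.72 to 1.05). Pcolce, which speeds removal of the C-terminal propeptide, and Bmp1, the protease that removes it, differed by 0.20 and 0.18. Pcolce was highest in PN1a 1, at 6.74, and lowest in PN1a 2, at 5.06, against 5.26 to 6.43 in PN1b.

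Lox and Loxl1, oxidases that start crosslinking, differed by 0.50 and 0.03. Lox had 3.77, 2.47, 4.81, 5.05 and 4.94 in PN1a 1 to PN1a 5, against 2.90 at the lowest, 3.33 at the median and 5.07 at the highest in PN1b. Both groups were split, with PN1a 3, PN1a 4 and PN1a 5 close to PN1b 5 and PN1b 6 and the others lower, and the difference within array batch 1 was -0.65. PN1a 1 was the highest sample for 6 of the 10 processing probe sets and PN1a 2 the lowest for 5.

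**Figure D5:**
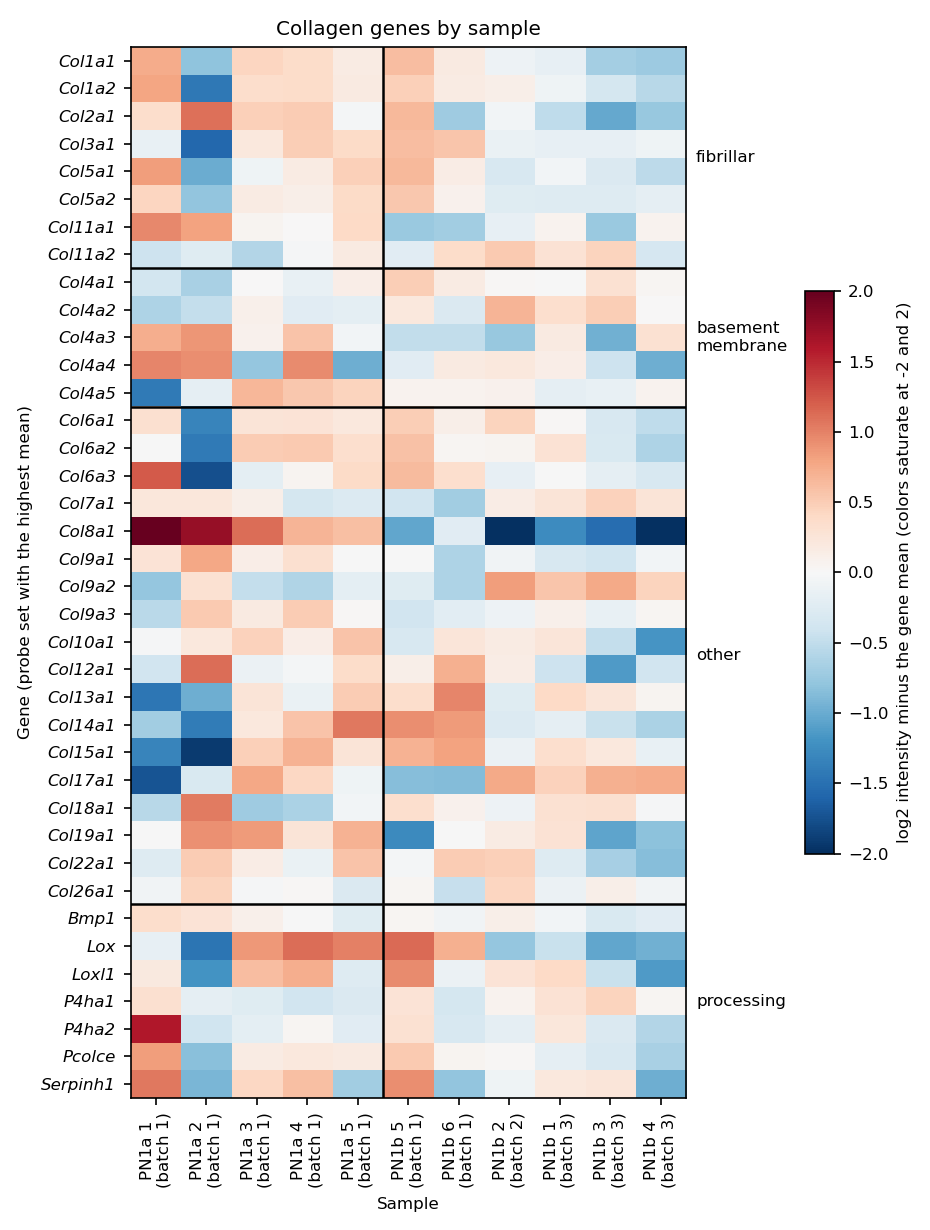
Log2 intensity minus the mean of the gene over the 11 samples (color, saturating at -2 and 2) for the brightest probe set of each of the 38 genes (rows) in each sample (columns), with PN1a left of the vertical line. The Col8a1 row is higher in all 5 PN1a samples than in any PN1b sample, and the PN1a 2 column is low for the chains of types I, III, V and VI.

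Other genes of collagen biology were read from lists chosen with earlier results known. None of 12 measured genes of chain folding and crosslinking was called in either direction, nor any of 12 fibril-associated proteoglycans and glycoproteins, 13 basement membrane partners, 7 collagen receptors and 13 regulators of collagen expression. Of 14 genes of collagen turnover 2 were called higher and 0 lower, beside 0.869% and 1.62% of all probe sets. The median differences of these lists were 0.14, -0.39, -0.34, 0.13, -0.05 and 0.49, in the order named, beside -0.01 over all probe sets.

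Mmp10, a matrix metalloproteinase, averaged 2.48 ± 0.34 in PN1a and 1.42 ± 0.50 in PN1b (SD, n = 5 and 6), a difference of 1.06 (adjusted p = 0.0455, limma). Its values were dim and near the floor of the array in PN1b, where the lowest was 0.62. Timp1, an inhibitor of metalloproteinases, averaged 6.77 ± 0.75 in PN1a and 5.19 ± 0.70 in PN1b, a difference of 1.58 (adjusted p = 0.0476, limma). Both calls lay close to the threshold, and they held in 1 and 2 of the 11 fits that left out a single sample. In array batch 1 the differences were 0.86 and 1.14. Neither was called with batch as a fixed block (adjusted p = 0.483 and 0.509, limma) or without PN1a 1 and PN1a 2 (adjusted p = 0.145 and 0.0811, limma).

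Among the basement membrane partners 12 of 13 genes had a lower mean in PN1a, without a call, beside 51.4% of all probe sets. Within array batch 1, 8 of the 13 were lower and the median difference was -0.185, and the summed intensities of PN1b 5 and PN1b 6, 587 and 589, lay within the PN1a range of 480 to 630. Lama2, the alpha 2 chain of laminin, ran from 2.61 to 6.34 in PN1a and from 6.45 to 6.91 in PN1b, with a difference of -2.05 (adjusted p = 0.0834, limma) that was -0.80 without PN1a 1 and PN1a 2. Lamb1, a laminin beta chain, differed by -0.68 (adjusted p = 0.109). Of the 12 fibril-associated genes 7 had a lower and 5 a higher mean in PN1a. Fmod, with the smallest p of that list, differed by -1.49 (adjusted p = 0.0863, limma), and by -0.91 without PN1a 1 and PN1a 2. The fibril-associated proteoglycans Dcn and Lum, which bind collagen fibrils, differed by -1.23 and -1.79, and by -0.04 and -0.03 without those 2 samples. The summed intensity of the fibril-associated list was 593 in PN1a 2 and 2241 to 2410 in the other PN1a samples, against 1767 to 2591 in PN1b. Cd44, a receptor that binds collagen and hyaluronan, differed by 0.87 (adjusted p = 0.0561), and Mrc1, an endocytic receptor of macrophages that takes up collagen, by 1.21 (adjusted p = 0.0891).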

How the data were processed

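RNA of whole mammary glands bearing PN1a (5 samples) or PN1b (6 samples) lesions was hybridized to Affymetrix MG_U74Av2 arrays. Per the paper's methods, the authors used dChip (PM-MM model, quantile normalization) and deposited a linear intensity for each of 12488 probe sets. Its version was not given in the sources used here. Intensities ran from 1 to 1938, their log2 values lay on steps of 0.01 to within 1e-06 of a step, and 0.817% were at the floor. Sample medians were 8.57 to 8.94 for PN1a and 8.88 to 9.51 for PN1b. Precision is limited by the number of arrays. Values near the floor carry little signal.

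No pseudocount was added before log2, and after removal of 66 array controls 12422 probe sets were tested. Of these 10833 carry 1 symbol, 396 several and 1193 none in the array annotation, and only the first were named. The 2 groups were compared by limma 3.58.1 under R 4.3.3 (lmFit, eBayes, two-sided, no covariate, Benjamini-Hochberg). Groups came from the labels. Correlations were tested by permutation in Python 3.11.15 with scipy 1.17.1, exact within array batch 1 and within PN1b, and figures were drawn with matplotlib 3.10.9. The model was tested on simulated data.

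The genes and lists were chosen with earlier results of these data known. Every gene of the set may be named. Col8a1, Col4a1, Col4a2, called genes, the chains of types I, III and V and up to 4 genes per class with the smallest p are given in detail, and up to 4 genes per further list. Col6a3, Col15a1, Col17a1, Col18a1, Serpinh1, Pcolce and the neighbours on chromosome 8 were described after their values were seen. For a gene with several probe sets the brightest stands for it. The alternatives were array batch fitted as a fixed or a random block, batch 1 by itself, the t-test of the methods, quantile normalization repeated, centring on the median, a filter at the median, log2(value + 16), no fold threshold, the trend and robust options of eBayes, averaging the probe sets of a gene, each sample left out, and PN1a 1 and PN1a 2 left out. Leaving out PN1a 5 and PN1b 6 was added after seeing the data.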

Additional observations from a re-analysis of the deposited data

Results flagged for a closer look

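Within each group, the highest or lowest sample was compared with its nearest neighbour for every probe set of the collagen and processing genes, by Dixon's criterion at the 5% level. Of 108 groups tested 10 stood out, where about 1 in 20, or 5.4, would by chance, and 8 of the 10 were in PN1a 2. In that sample the second probe set of Col1a1 was at 7.19 (next lowest PN1a sample 8.09), Col1a2 at 7.50 (9.11), a dim probe set of Col3a1 at 2.09 (3.79) and Col5a2 at 6.61 (7.51). Col6a1 was at 5.63 (7.15) and Col6a2 at 4.76 (6.16). The same sample was highest of PN1a for the second probe set of Col1a2, at 4.79 (next highest 4.38), and for a dim probe set of Col18a1, at 5.46 (3.70). P4ha2 was highest of PN1a in PN1a 1, at 5.49 (3.93). A further probe set of Col18a1 was lowest of PN1b in PN1b 6, at 5.22 (6.13). These probe sets share samples and several share a gene, so the flags are not independent.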

How the results depend on the processing

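The count of chain probe sets called higher in PN1a, 1 over all samples, was 0 with array batch as a fixed block, within array batch 1, on log2(value + 16) and with the methods' t-test after Benjamini-Hochberg adjustment, and 1 to 2 when each sample was left out in turn. The second was Col2a1, called without PN1b 5, a fit for which the share of all probe sets called is not given here. The Col8a1 difference of 3.03 became 2.29 under the fixed block (adjusted p = 0.428, limma) and within array batch 1 (adjusted p = 0.671, limma), and 1.65 on log2(value + 16) (adjusted p = 0.0693, limma). With the methods' t-test it was 3.03 with an adjusted p of 0.0665. The batch fits rest on 2 PN1b samples beside PN1a, and the cause of the lost calls was not tested further. With batch as a random block, whose consensus correlation was 0.0744, the call held (adjusted p = 0.0309, limma). Counts of chain probe sets called lower and of processing probe sets called in either direction were 0 in every setting run, and Col4a1 and Col4a2 stayed lower in PN1a and uncalled in each. Over all probe sets, the methods' t-test at its own threshold called 271 higher and 442 lower, against 108 and 201 with limma, and the fixed block 12 and 19. Within array batch 1 there were 6 and 12, with the random block 58 and 104, and on log2(value + 16) 65 and 148. No paired analysis was possible because the labels give PN1a and PN1b samples no shared replicate numbers. Dim probe sets such as those of Col4a3, Col4a4 and Col12a1 lie near the floor of the array, which limits their values.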
